A study of Mus musculus with 6 samples.

Results

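The data on 10 genes of the upper layers of stratified epithelium were examined in mouse dental epithelial organoids (DEOs). They are the transglutaminases Tgm1, Tgm3 and Tgm5, the plakins Ppl (periplakin) and Evpl (envoplakin), the secreted proteins Sbsn (suprabasin), Krtdap (keratinocyte differentiation-associated protein) and Dmkn (dermokine), and the calmodulin-like proteins Calm4 and Calml3. They were chosen by name, as 10 of the 47360 gene symbols in the expression table, and each had 1 entry in it.

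DEOs were grown for 14 days in Matrigel from epithelial cells of the apical bud of the incisor of wild-type C57BL/6J female mice aged 9 weeks, and RNA was sequenced from 1 library per medium. The growing mouse incisor keeps stem cells in this bud and the media combine growth factors for organoid growth with factors that act on Notch and FGF signalling. All 4 media analysed here held Wnt3a- and R-spondin1-conditioned medium, N-acetylcysteine, the kinase inhibitor Y27632, EGF at 100 µg/ml and Noggin, an antagonist of BMP ligands, at 200 µg/ml. The control medium, +N, held nothing further. +ND also held DBZ, listed at 10 µM in the labels (the methods text gives another unit), which blocks the γ-secretase cleavage that activates Notch receptors. +NF held FGF10 at 100 µg/ml, a ligand that reaches dental epithelium from the mesenchyme, and +NFD held both. The 2 media with the Notch ligand Jagged1, +NJ and +NFJ, were not analysed here. The labels do not say how many cultures or mice went into a library. Since each medium is represented by 1 library, no spread between replicates can be given, and no test was run.

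In the upper layers of the epidermis, transglutaminases join proteins by bonds between glutamine and lysine residues and so build the cornified envelope, a protein shell beneath the plasma membrane. Periplakin and envoplakin are among the first scaffold proteins to be placed under the membrane, where they tie the envelope to desmosomes and keratin filaments. Suprabasin, dermokine and Krtdap are secreted by suprabasal keratinocytes and are encoded side by side, whereas the calmodulin-like proteins bind calcium, the ion that drives keratinocyte differentiation.

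Values are FPKM, which scale fragment numbers to transcript length and library size, so levels can be set side by side between genes. Ratios between 2 libraries are given as log2((FPKM + 1)/(FPKM + 1)), a scale on which low genes appear to change less than they do, and a gene was used where either library reached an FPKM of 1. All 10 genes passed this filter in each comparison. Across the 4 libraries, 19606 to 20450 genes were above 0. Relative to +N, depth estimated from the step of 1 fragment was 0.793 for +ND, 1.04 for +NF and 1.05 for +NFD. The median log2 ratio of all genes relative to +N was 0.10 for +ND, 0.12 for +NF and 0.18 for +NFD, so a small positive ratio lies at or under the shift of the whole table. Basal epithelial markers summed to an FPKM of between 11839 and 20489, whereas endothelial markers did not exceed 0.326 in sum. Of the ameloblast markers, Odam, which maturing ameloblasts and junctional epithelium secrete, ranged from 2602 in +NFD to 6221 in +N. Amtn also had its lowest value with both factors (1.13) and its highest in the control medium (7.01). Log2 ratios of +NFD to +N were -1.26 for Odam and -1.91 for Amtn. By contrast, the enamel matrix genes Amelx, Ambn and Enam were under an FPKM of 1 outside +NFD. Mmp20 and Klk4 were under 1 throughout. Suprabasal keratins summed to 598 in +N and 224 in +ND, with 23.6 in +NF and 52.3 in +NFD, and Krt2 was listed at 0 in each library. Within this list, Krt1 went the other way with DBZ, from 0.300 in +N to 52.2 in +ND. Macrophage marker sums ranged from 136 to 182. Fibroblast marker sums were 153 in +N, 128 with DBZ (+ND), 94.3 with FGF10 (+NF) and 366 with both (+NFD), and 6 of the 7 fibroblast markers reached 2-fold in +NFD over +N, beside 5.85% of all genes; their part in the ratios of +NFD was not tested. In these bulk libraries, fewer cells of a type and less RNA per cell cannot be told apart.

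Of the 10 genes, 5 (Tgm3, Tgm5, Sbsn, Krtdap and Calm4) had the same order of levels, with the highest FPKM in +ND, then +NFD, then +N, and the lowest in +NF. The same order, counted after the values were seen, held for 716 of the 13748 genes that reached an FPKM of 1 in any library (5.21%). The other 5 genes each had an order of their own. Tgm1 was level to within 1.42 times over the media, and Ppl, Evpl, Dmkn and Calml3 were highest in +N. The 10 genes together reached an FPKM of 1919 in +N and 3559 in +ND, with 991 in +NF and 1325 in +NFD. These sums rest largely on single genes. Dmkn made up 61.0% in +N, 73.2% in +NF and 43.3% in +NFD, and Krtdap 55.7% in +ND.

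**Figure D1:**
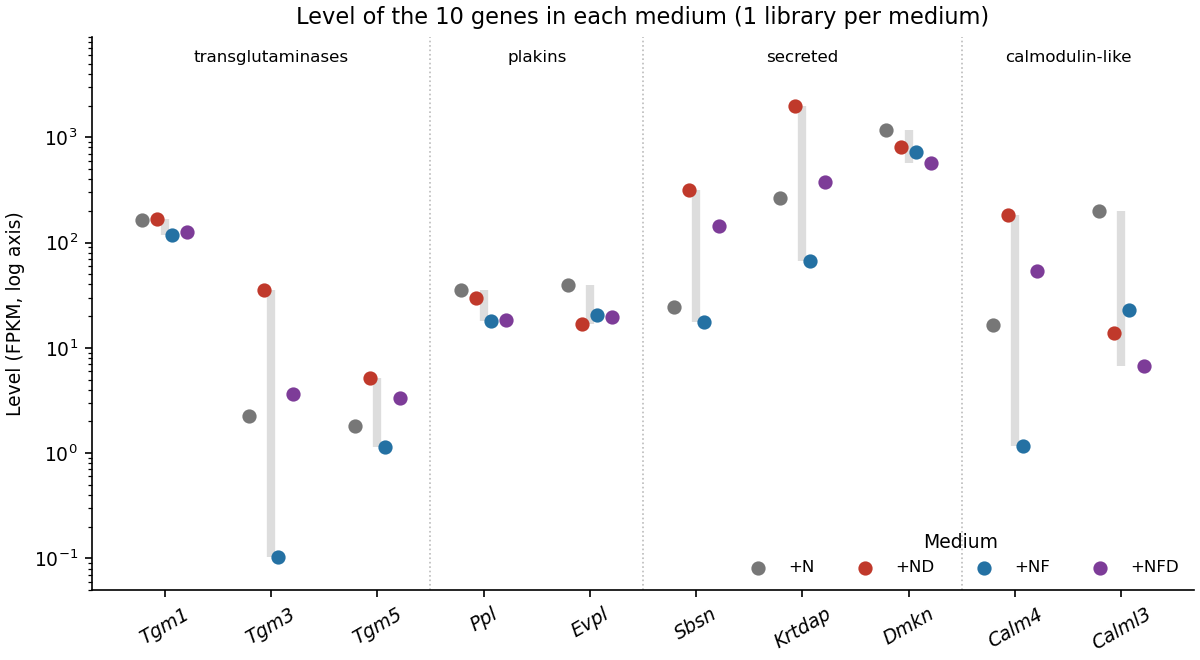
FPKM (log axis) of the 10 genes, grouped by role, with 1 point per library coloured by medium and a grey bar from the lowest to the highest value. Tgm3 spans from 0.103 to 35.7 and Calm4 from 1.16 to 181.6, whereas Tgm1 stays between 119 and 169; the +ND point is highest for 6 genes and the +NF point lowest for 7.

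Sbsn, Dmkn and Krtdap are neighbours on chromosome 7 on the plus strand (GRCm38), at chr7:30751471-30756134, chr7:30763756-30781063 and chr7:30787896-30791097, with gaps of 7.62 kb and 6.83 kb between them. Because Dmkn took a different order over the media from its neighbours Sbsn and Krtdap, the 250 bases upstream of their start sites are shown (RefSeq, GRCm38.p6, plus strand), with 4 windows for 3 genes since RefSeq gives Dmkn a second start downstream. A further start of Dmkn, 2 bases from the first, has a window that is not printed. Capitals mark matches to TGANTCA, the element bound by AP-1 factors such as Fos and Jun, and to TATAAA, the box bound by TBP, each searched on both strands.
Sbsn, chr7:30751221-30751470: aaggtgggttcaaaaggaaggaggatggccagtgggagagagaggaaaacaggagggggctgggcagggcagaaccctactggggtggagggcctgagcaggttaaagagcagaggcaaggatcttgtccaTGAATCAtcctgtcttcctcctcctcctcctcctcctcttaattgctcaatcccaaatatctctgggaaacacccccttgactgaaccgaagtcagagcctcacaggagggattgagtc
Dmkn, first start, chr7:30763506-30763755: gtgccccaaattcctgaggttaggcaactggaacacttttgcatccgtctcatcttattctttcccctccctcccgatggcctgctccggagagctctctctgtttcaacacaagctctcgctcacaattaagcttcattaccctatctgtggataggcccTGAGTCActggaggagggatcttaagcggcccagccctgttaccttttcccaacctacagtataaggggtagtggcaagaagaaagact
Dmkn, second start, chr7:30776155-30776404: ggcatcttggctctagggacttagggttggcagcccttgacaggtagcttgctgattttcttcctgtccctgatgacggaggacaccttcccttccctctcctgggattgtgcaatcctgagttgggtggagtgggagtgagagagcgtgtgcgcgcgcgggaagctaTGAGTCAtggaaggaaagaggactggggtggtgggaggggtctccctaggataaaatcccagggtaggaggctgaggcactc
Krtdap, chr7:30787655-30787904: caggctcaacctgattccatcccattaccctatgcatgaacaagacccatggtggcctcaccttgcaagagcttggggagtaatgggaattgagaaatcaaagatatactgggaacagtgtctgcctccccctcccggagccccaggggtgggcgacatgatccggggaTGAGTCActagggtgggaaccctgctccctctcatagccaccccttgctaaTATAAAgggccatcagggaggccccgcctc

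Each of the 4 windows held 1 match to TGANTCA. Counted back from the start site, it lay at -119 to -113 in Sbsn, at -89 to -83 and -82 to -76 before the first and second starts of Dmkn, and at -81 to -75 in Krtdap. Among 32851 windows of this length in the table of promoters, 6.75% held a match. The windows of the other genes with an entry, Calm4, Tgm1, Tgm3 and Tgm5, held none. TATAAA was found in Krtdap at -30 to -25 and in Tgm3 at -28 to -23, and in 12.4% of all windows. The remaining motifs searched on both strands were CACCC, to which Klf factors bind, TGGGAA, the core of the element bound by RBPJ (the DNA-binding partner of cleaved Notch), TTGCNNAA for C/EBP factors and AACNNGTT for grainyhead-like factors. Counted over the 10 windows of the 7 genes, of which Dmkn has 3 and Tgm1 has 2, TGANTCA was in 5, CACCC in 7 (52% of all windows), TGGGAA in 5 (21.6%), TTGCNNAA in 5 (9.56%) and AACNNGTT in 0 (3.64%). The 3 windows of Dmkn include a pair that overlaps almost wholly, so they are not separate matches. A match describes letters in the window and not binding. Ppl, Evpl and Calml3 had no entry.

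Sbsn, a secreted protein of suprabasal cells, was listed at an FPKM of 24.2 in +N, with 315.6 in +ND, 17.6 in +NF and, with both factors, 144.3 in +NFD. Both libraries with DBZ were above both libraries without it. Its log2 ratio was 3.65 in +ND relative to +N, the 64th highest of 13173 genes, 2.97 in +NFD relative to +NF and -0.44 in +NF relative to +N. Krtdap was at 265 in +N, 1982 with DBZ (+ND), 66.0 with FGF10 (+NF) and 375 with both (+NFD), with log2 ratios of 2.90 for +ND against +N, -1.99 for +NF against +N and 2.49 for +NFD against +NF. Each added factor thus went with the same direction of Krtdap and Sbsn with or without the other. FGF10 went with a wider gap in Krtdap than in Sbsn, both without DBZ (-1.99 against -0.44) and with it (-2.40 against -1.12). Dmkn, the most abundant of the 10 genes outside +ND, was at 1171.5 in +N and 809 in +ND, with 725 in +NF and 574 in +NFD. It was lower in every medium than in +N, and the log2 ratio passed 2-fold only in +NFD (-1.03).

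The neighbours therefore changed rank. The FPKM of Dmkn was 4.41 times that of Krtdap in +N, 10.98 times in +NF and 1.53 times in +NFD, and in +ND that of Krtdap was 2.45 times that of Dmkn. Within 100 kb of these 3 genes lie 10 other protein-coding genes, of which 2 passed the filter in +ND or +N. These were Haus5, a subunit of the augmin complex of the spindle, with a log2 ratio of 0.12, and Tmem147, a membrane protein of the endoplasmic reticulum, with 0.60. Neither reached 2-fold. An annotated transcript on the same strand overlaps Sbsn, RP24-63G4.14, at 5.56, 9.44, 2.73 and 10.3 in +N, +ND, +NF and +NFD, and 6.96% of the 50-base words of Sbsn transcripts also occur in the gene Tmem147os. Krtdap is short, with a longest transcript of 470 nt, so its FPKM depends strongly on the assumed length. Dmkn has 6 annotated transcripts, which the gene-level values do not separate.

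**Figure D2:**
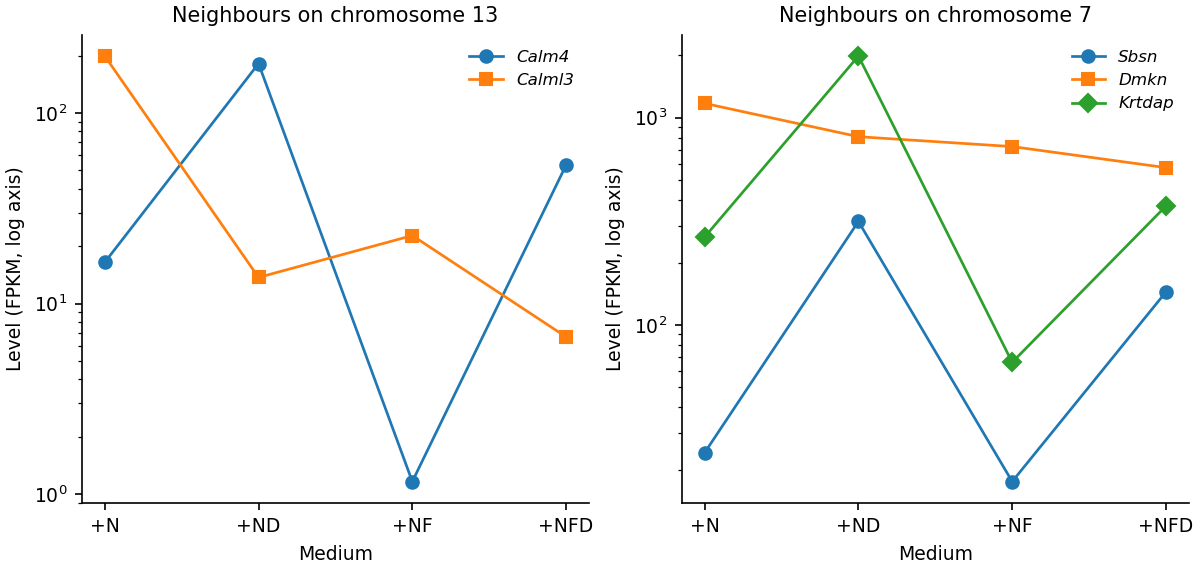
FPKM (log axis) in the 4 media of the neighbours Calm4 and Calml3 on chromosome 13 (left) and Sbsn, Dmkn and Krtdap on chromosome 7 (right); lines join the values of 1 gene and do not stand for a time course. Calm4 and Calml3 change places between +N (16.5 and 198.9) and +ND (181.6 and 13.7), and Krtdap passes Dmkn in +ND only.

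Calm4 and Calml3 lie back to back on chromosome 13, Calm4 at chr13:3837757-3838671 on the plus strand and Calml3 at chr13:3802893-3804318 on the minus strand, with their 5′ ends 33.4 kb apart. Calml3 is a close relative of calmodulin and Calm4, also known as skin calmodulin-related protein, is a more distant one. The first 120 bases of the coding sequences show this (transcripts of GENCODE release M21, coding strand), where capitals mark bases that differ from Calm2, one of the genes for calmodulin itself.
Calm2: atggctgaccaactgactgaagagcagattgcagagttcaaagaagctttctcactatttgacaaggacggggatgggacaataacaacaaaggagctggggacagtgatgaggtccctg
Calml3: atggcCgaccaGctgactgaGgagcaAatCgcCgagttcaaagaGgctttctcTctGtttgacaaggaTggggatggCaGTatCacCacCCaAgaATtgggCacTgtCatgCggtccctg
Calm4: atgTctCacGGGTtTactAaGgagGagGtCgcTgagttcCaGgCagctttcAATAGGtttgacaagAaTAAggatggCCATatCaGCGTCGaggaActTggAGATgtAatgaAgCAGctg

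Calml3 differed from Calm2 at 24 of these 120 positions and Calm4 at 48. Over the whole coding sequence, Calml3 was identical to Calm2 at 75.4% of 447 aligned bases, and Calm4 was identical to Calml3 at 62.7% of 442. Calml3 transcripts shared no 50-base word with another gene, and those of Calm4 shared 4.72% of its words, with Calm5. Calm5, the neighbour of Calm4, was listed at 0.150 or below in each library.

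Calm4 was at an FPKM of 16.5 in +N, with 181.6 in +ND, 1.16 in +NF and, with both factors, 53.3 in +NFD, and Calml3 at 198.9, 13.7, 22.7 and 6.68. The pair went opposite ways with DBZ. In +ND relative to +N the log2 ratio was 3.39 for Calm4, the 74th highest of 13173 genes, and -3.77 for Calml3, the 41st lowest. In +NFD relative to +NF the log2 ratios were 4.65 and -1.63. With FGF10 both were lower, at -3.01 for Calm4 and -3.07 for Calml3 in +NF relative to +N, the 33rd and 32nd lowest of 13090 genes. The Calm4 value in +NF rests on about 30.5 fragments, and 3 fragments correspond to an FPKM of 0.114. The FPKM of Calml3 was 12.1 times that of Calm4 in +N and 19.5 times in +NF, and that of Calm4 was 13.3 times that of Calml3 in +ND and 7.97 times in +NFD. Calml3 stood lowest in +NFD, with a log2 ratio of -4.70 relative to +N, the 19th lowest of 13358 genes.

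The calmodulin genes Calm2 and Calm3 stayed under 2-fold in the 5 comparisons. Calm2 came closer, with FPKM of 147 in +N, 291 with DBZ (+ND), 260 with FGF10 (+NF) and 236 with both (+NFD) and 0.98 as the log2 ratio of +ND to +N. Among other genes within 100 kb of the pair, only Net1, a RhoA exchange factor, passed the filter in +ND or +N, with a log2 ratio of 0.22. Near other members, some neighbours that passed the filter reached 2-fold in +ND relative to +N, beside 5.88% of all genes higher and 5.29% lower. These neighbours were Tgm6 by Tgm3 (1.74, 1 of 1), Irf9 by Tgm1 (-1.58, 1 of 15) and AU021092 by Ppl (-4.15, 1 of 6). No neighbour of Tgm5 or Evpl did.

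Tgm1, the membrane-anchored transglutaminase of keratinocytes, lies at chr14:55700009-55713492 on the minus strand. Its FPKM was 164 in +N and 169 in +ND, with 119 in +NF and 127 in +NFD. No ratio reached 2-fold, and the largest was -0.47 in +NF relative to +N. The log2 ratio of 0.04 between +ND and +N gives no direction, since it became -0.07 with upper-quartile scaling. Tgm1 shares 4.18% of its 50-base words with the annotated gene Gm49067. It made up 76.8% to 89.6% of the summed FPKM of the 9 transglutaminase family genes in each library.

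Tgm3, the soluble enzyme of the granular layer and the hair follicle that is activated by proteolysis, lies at chr2:130012349-130050399 on the plus strand. It had the widest range of the 10 genes, 348 times between the highest and the lowest library. The 250 bases before its RefSeq start are shown beside those of Calm4 (RefSeq, GRCm38.p6, plus strand), since these genes had the widest ranges among those that were highest in +ND. Capitals mark the same motifs as above.
Tgm3, chr2:130012090-130012339: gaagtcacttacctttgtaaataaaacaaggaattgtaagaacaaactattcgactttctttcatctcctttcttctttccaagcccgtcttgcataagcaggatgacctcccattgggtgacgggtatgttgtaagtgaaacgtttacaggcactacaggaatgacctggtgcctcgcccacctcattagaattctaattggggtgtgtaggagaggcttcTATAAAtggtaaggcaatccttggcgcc
Calm4, chr13:3837507-3837756: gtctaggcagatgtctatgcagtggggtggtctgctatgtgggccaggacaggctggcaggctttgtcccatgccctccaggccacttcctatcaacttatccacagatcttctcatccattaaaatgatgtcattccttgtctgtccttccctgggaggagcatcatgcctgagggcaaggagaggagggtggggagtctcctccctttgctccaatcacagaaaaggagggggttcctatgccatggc

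Tgm3 was at an FPKM of 2.24 in +N, with 35.7 in +ND, 0.103 in +NF and, with both factors, 3.62 in +NFD. The +NF value rests on about 12.1 fragments and the others on about 255, 3226 and 431. The log2 ratios were 3.50 in +ND relative to +N, the 69th highest of 13173 genes, -1.56 in +NF relative to +N, 2.07 in +NFD relative to +NF and -2.99 in +NFD relative to +ND, the 25th lowest of 13293. In +N and +NFD, by contrast, the levels differed by a log2 ratio of 0.51 only. Because values this low are compressed by the added 1, the plain ratio of FPKM is larger, 21.9 times between +N and +NF and 35.3 times between +NFD and +NF. Tgm1 exceeded Tgm3 by 73.2 times in FPKM in +N, 4.73 times in +ND, 1157 times in +NF and 35.0 times in +NFD.

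Tgm5, an enzyme of the upper epidermis whose loss causes skin peeling, lies at chr2:121046111-121085841 on the minus strand, far from Tgm3 on the same chromosome. It was at an FPKM of 1.81 in +N, 5.21 with DBZ (+ND), 1.14 with FGF10 (+NF) and 3.36 with both (+NFD). The libraries with DBZ were above those without, with log2 ratios of 1.14 in +ND relative to +N and 1.03 in +NFD relative to +NF. The second of these was 0.99 with upper-quartile scaling, so it does not pass 2-fold under each scaling.

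Among the other transglutaminases, Tgm6, which follows Tgm3 at 62.0 kb, was listed at 0 in +N and +NF, at 2.34 in +ND and at 0.616 in +NFD. Tgm2, the widely expressed tissue transglutaminase, went the other way with DBZ, at 3.26 in +N and 0.761 in +ND, with 3.17 in +NF and 1.09 in +NFD. F13a1, the A subunit of coagulation factor XIII, which macrophages also express, was at 12.0, 6.76, 9.16 and 5.54 in the same order of media. Tgm7, the neighbour of Tgm5 at 7.72 kb, did not exceed 0.562, Tgm4 did not exceed 0.125, and Epb42, a family member without enzyme activity, was listed at 0 throughout.

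Ppl (chr16:5086291-5132481, minus strand) and Evpl (chr11:116220559-116238077, minus strand) encode partners that bind one another, and their coding sequences were identical at 62.8% of 5129 aligned bases. Ppl was at an FPKM of 35.4 in +N, with 29.7 in +ND, 18.1 in +NF and, with both factors, 18.3 in +NFD. Evpl was at 39.3 in +N, 16.9 with DBZ (+ND), 20.4 with FGF10 (+NF) and 19.6 with both (+NFD). Both were highest in +N and close to one another in each library except +ND, where the FPKM of Ppl was 1.75 times that of Evpl. In the other media this ratio lay between 0.884 and 0.935. Evpl was the only plakin of the pair past 2-fold, at -1.17 for +ND against +N. In +NF relative to +N the log2 ratios were -0.93 for Ppl and -0.91 for Evpl, and in +NFD relative to +N they were -0.91 and -0.97. With upper-quartile scaling all 4 of these passed 2-fold, between -1.04 and -1.13.

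Dsp, the desmosomal plakin, was also highest in +N but stayed under 2-fold, at an FPKM of 178 in +N and 150.5 in +ND, with 157 in +NF and 122 in +NFD. Dst, a plakin of hemidesmosomes and the cytoskeleton, was instead lowest in +N at 18.7 and highest in +ND at 39.4, a log2 ratio of 1.03. Taking off the shift of all genes in +ND, 0.10, would bring Dst under 2-fold. Plec and Macf1, which link filaments and microtubules, stayed between 15.3 and 27.5. Of the summed FPKM of the plakins, Ppl and Evpl together made up 24.1% in +N and 14.2% to 16.9% in the other media.

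Counted at 2-fold, the 10 genes went both ways with DBZ and downwards with FGF10. In +ND relative to +N, 5 were at least 2-fold higher (Sbsn, Tgm3, Calm4, Krtdap and Tgm5) and 2 at least 2-fold lower (Calml3 and Evpl), whereas 5.88% of all 13173 genes were higher and 5.29% lower. The median log2 ratio was 0.59 over the 10 genes and 0.10 over all. In +NF relative to +N, all 10 were lower, 4 of them at least 2-fold (Calml3, Calm4, Krtdap and Tgm3) and 0 at least 2-fold higher, beside 2.44% of all genes lower and 2.76% higher. The 4 became 6 with upper-quartile scaling or centring, as Ppl and Evpl passed the threshold, and 3 when an FPKM of 5 was required, which removes Tgm3. The median was -0.92 against 0.12 over all genes, and the ratios lay between -3.07 and -0.39.

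With both factors, in +NFD relative to +N, 2 of the 10 were at least 2-fold higher (Sbsn at 2.53 and Calm4 at 1.64) and 2 at least 2-fold lower (Calml3 and Dmkn), beside 5.85% of all genes higher and 4.03% lower. The median of 0.063 lay under the 0.18 of all genes and gives no direction, since it was -0.11 with upper-quartile scaling, -0.12 with centring and -0.64 where an FPKM of 5 was required. The 2 lower genes became 4 with upper-quartile scaling, as Ppl and Evpl passed the threshold. In +NFD relative to +NF, 5 genes were higher, the same as those higher in +ND, and Calml3 was lower, beside 3.72% and 2.69% of all genes. The 5 became 4 with upper-quartile scaling or centring, without Tgm5, and 3 where an FPKM of 5 was required. In +NFD relative to +ND, 9 of the 10 were lower, 4 at least 2-fold (Tgm3, Krtdap, Calm4 and Sbsn) and 0 at least 2-fold higher, beside 3.11% and 3.39% of all genes. Evpl was the exception at 0.20. The 4 became 5 with a pseudocount of 0.1, with none and with centring, as Calml3 passed the threshold. The comparisons against +N share that library, as those of +NFD share theirs, so they are not independent of one another.

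**Figure D3:**
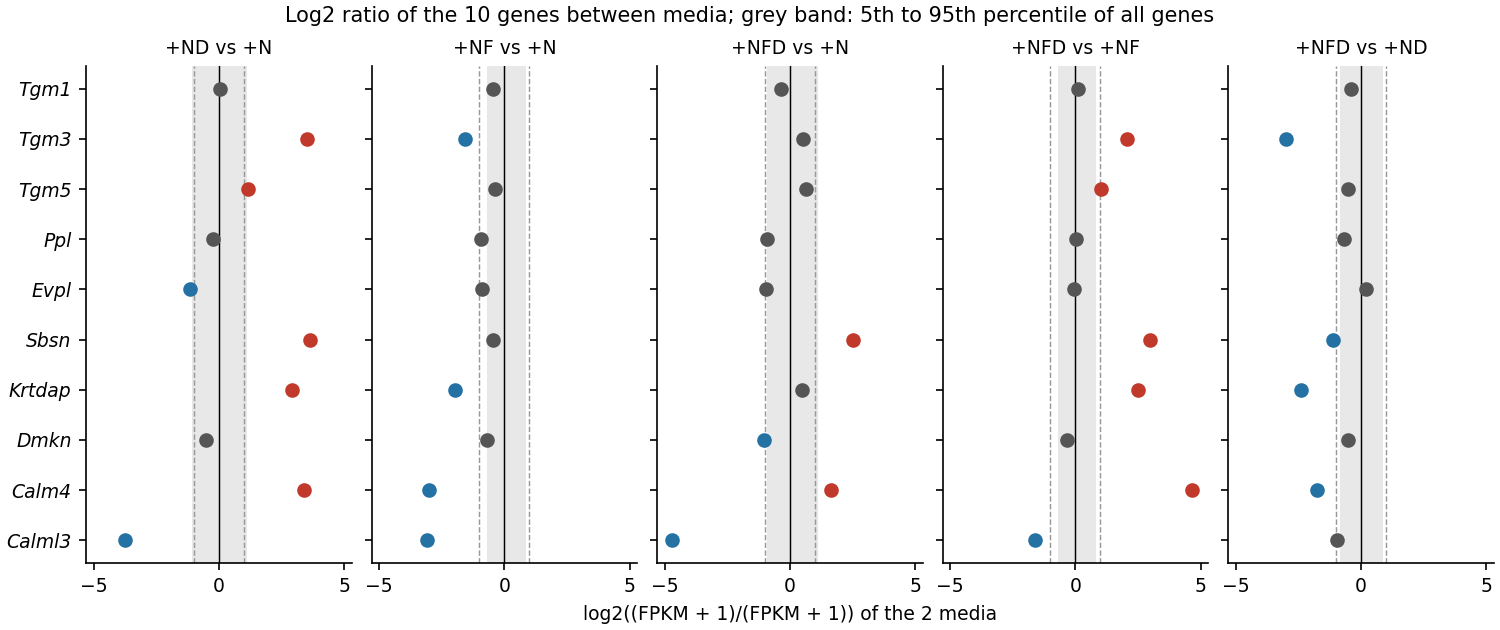
Log2 ratio of each gene in the 5 comparisons (points, red at least 2-fold higher, blue at least 2-fold lower, grey under 2-fold; dashed lines at 2-fold), with the 5th to 95th percentile of all genes as a grey band. In +NF against +N all 10 points lie below 0, and in +ND against +N they spread from -3.77 for Calml3 to 3.65 for Sbsn.

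The layout of 2 factors allows the FGF10 ratio to be read with and without DBZ. Tgm1, Tgm5, Ppl, Dmkn and Krtdap had FGF10 log2 ratios that differed by 0.41 or less between the backgrounds, as for Tgm5 with -0.39 without DBZ and -0.51 with it. Calml3 differed most, with -3.07 without DBZ and -0.94 with it, a difference of 2.14. For Calm4 the ratios were -3.01 and -1.75, a difference of 1.26 that became 2.05 without the added 1, close to the 2.09 of Calml3 on that scale. For Evpl they were -0.91 and 0.20. Sbsn differed the other way, by -0.68, with -0.44 without DBZ and -1.12 with it. The difference for Tgm3 was -1.43 and depends on the added 1, since it was 1.15 with none. None of these differences was tested, as each rests on 4 libraries.

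**Figure D4:**
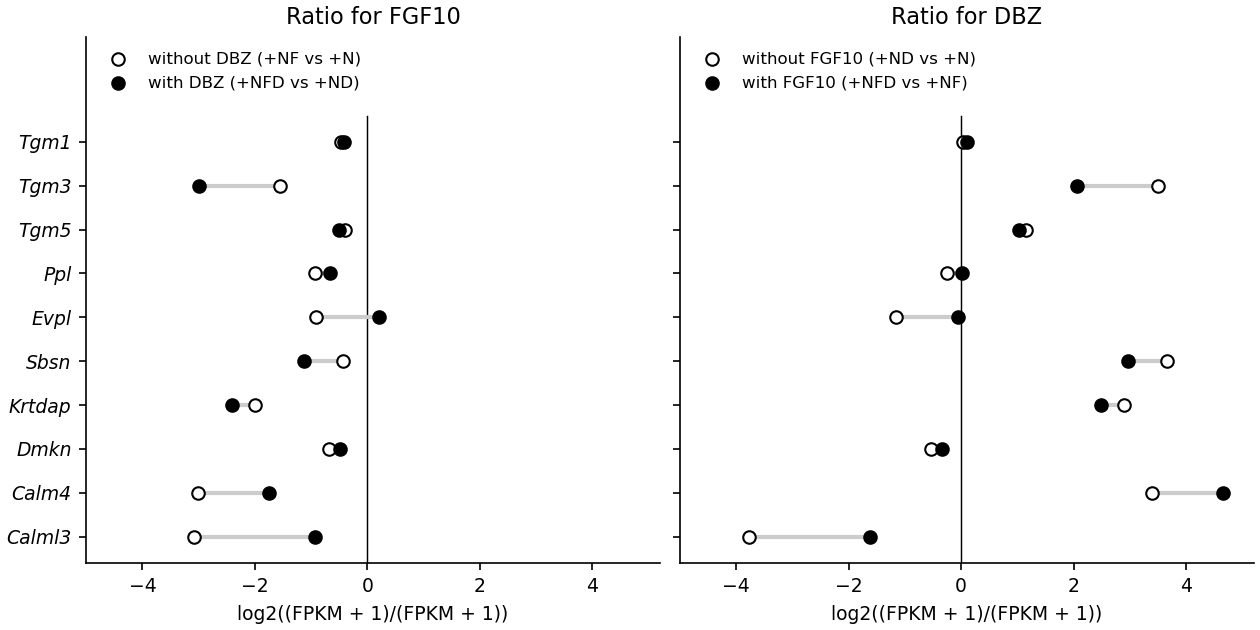
Log2 ratio for FGF10 (left) and for DBZ (right) of each gene without (open) and with (filled) the other factor. Open and filled points lie on the same side of 0 for all genes except Evpl on the left (-0.91 and 0.20) and Ppl on the right (-0.25 and 0.02).

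The other proteins of the cornified envelope are substrates of transglutaminases or parts of the same layers. The list of substrates counted here also holds Sprr2j-ps, a pseudogene, and Trex2, an exonuclease. Their log2 ratios in +ND relative to +N were 1.69 and 2.41. Of 51 cornified envelope substrates that passed the filter (loricrin, the Sprr and Lce families and others, none of them among the 10), 38 were at least 2-fold higher and 1 lower in +ND relative to +N, beside 5.88% and 5.29% of all genes, with a median log2 ratio of 2.87 beside 0.10. In +NF relative to +N, 32 of 42 were at least 2-fold lower and 0 higher, beside 2.44% and 2.76% of all genes, with a median of -1.76 beside 0.12. The order of levels of Tgm3, Tgm5, Sbsn, Krtdap and Calm4 was found in 35 of 51 substrates, beside 5.21% of all genes. It was also found in 8 of 17 genes of the spinous and granular layers, 3 of 7 macrophage markers and 0 of 7 basal and 0 of 7 fibroblast markers. Most ratios of the substrates in +ND relative to +N were upwards, with 43 of 51 above 0 and 8 below. The ratios of the spinous and granular genes went both ways at 2-fold. Of the 17 spinous and granular genes, 11 were at least 2-fold higher and 5 lower, beside the same 5.88% and 5.29%, from 5.35 for Krt1, a keratin of the spinous layer, to -3.20 for Ly6d, a surface protein.

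**Figure D5:**
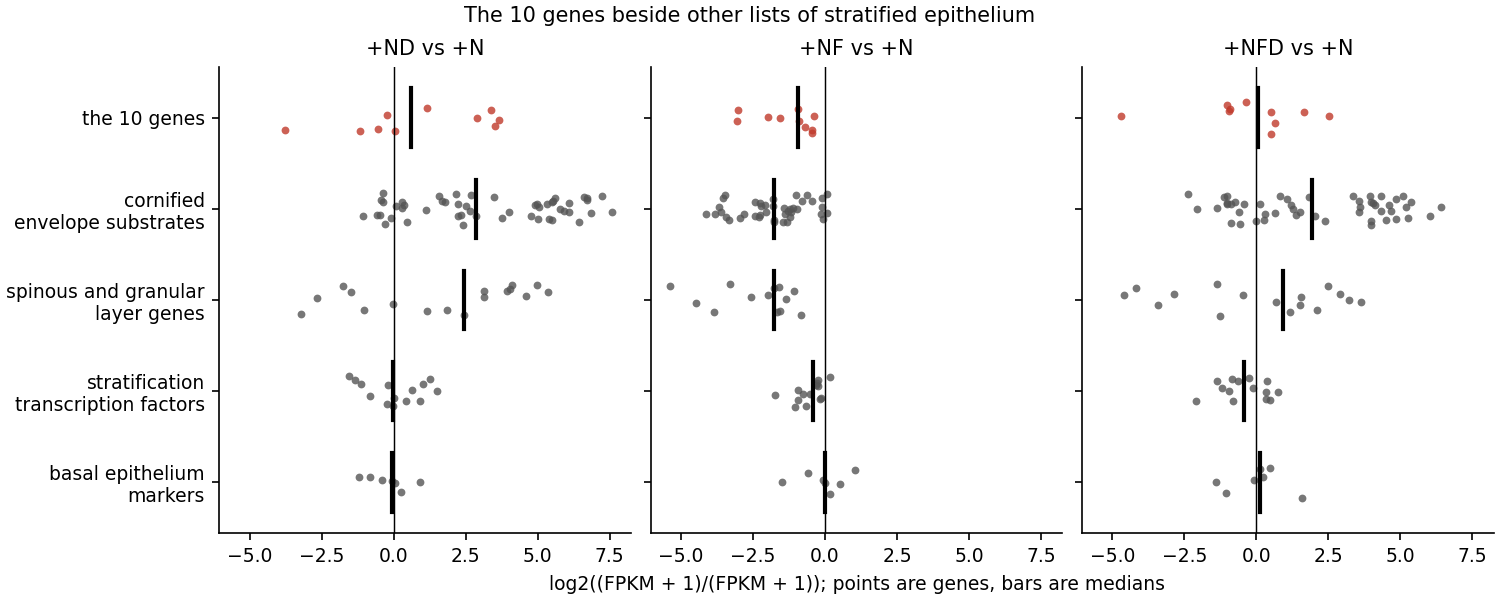
Log2 ratio against +N of the 10 genes (red) and of the genes of 4 lists (grey) that passed the filter, with the median as a black bar. In +ND the substrates have a median of 2.87 and the 10 genes of 0.59; in +NF both medians are below 0, at -1.76 and -0.92.

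Transcription factors of stratification also went both ways with DBZ. Of 14 that passed the filter, 3 were at least 2-fold higher and 3 lower in +ND relative to +N, beside 5.88% and 5.29% of all genes. The order of levels of Tgm3 was found in 4 of the 14, beside 5.21% of all genes. Ovol1, a repressor that restrains the growth of epidermal progenitors, was at 11.7 in +N, with 35.1 in +ND, 6.49 in +NF and, with both factors, 20.2 in +NFD. Klf4, which drives formation of the skin barrier, was at 27.6, 68.2, 14.0 and 35.3. Both are among these 4. Zfp750, a zinc finger factor of late differentiation, was at 28.7, 9.04, 14.5 and 5.92, highest in +N and lowest in +NFD as were Dmkn and Calml3.

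Target genes of both pathways were read in the same libraries. Of the Notch target genes, the 3 that passed the filter were at least 2-fold lower in +ND than in +N (5.29% of all genes), and 1 of the 3, Nrarp, was so in +NFD relative to +N (4.03%) and to +NF (2.69%). Relative to +N, Hes1 and Notch3 lay just under the threshold in +NFD, at -0.96 and -0.99, which the shift of all genes of 0.18 would carry past it. Nrarp, a feedback inhibitor of Notch, was at 18.2 in +N and 2.80 in +ND, with 9.12 in +NF and 2.60 in +NFD, and Hes1, a Notch-induced repressor, at 157, 74.6, 109 and 80.1. Of 9 ERK feedback genes, 4 reached 2-fold higher levels in +NF than in +N (2.76% of all genes). Of the 9, 2 did so in +ND as well, Etv4 at 1.04 and Etv5 at 1.09 (5.88% of all genes). Taking off the shift of all genes in +ND, 0.10, would bring both under the threshold. Dusp6, an ERK phosphatase, was at 64.1 in +N, with 88.4 in +ND, 226 in +NF and, with both factors, 176 in +NFD.

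For each of the 10 genes, the genes with the most similar pattern were found by the Euclidean distance between the 4 values of log2(FPKM + 1), each centred on its own mean, over the 10467 genes that reached an FPKM of 5 in any library. With 4 values, many genes lie close to any pattern, and a short distance describes these libraries only. Tgm3 and Krtdap were nearest to one another, at 0.53, with 0 of the other genes nearer to either. This closeness depends on the added 1, since without it the log2 ratio of +NF to +N was -4.45 for Tgm3 and -2.01 for Krtdap. Next to Krtdap came Igfbp3, a binding protein of insulin-like growth factors, at 0.58, with FPKM of 199.6 in +N, 1071.8 with DBZ (+ND), 60.1 with FGF10 (+NF) and 227.7 with both (+NFD). Sbsn lay nearest to Crnn (cornulin, 0.28), a protein of the upper epidermis and oral mucosa, and Gsdma (gasdermin A, 0.31), and Calm4 to the kallikrein protease Klk10 (0.37) and to Crct1 (0.45). Dmkn lay nearest to Trib1 (0.075), followed by the desmosomal genes Pkp1 (0.089) and Dsc2 (0.10). For Calml3 the nearest was 2610528A11Rik at 0.82, then Aldh1a1, an enzyme of retinoic acid synthesis, at 0.98, whose FPKM was 24.3 in +N and 1.15 in +ND, with 5.80 in +NF and 0.845 in +NFD. Ppl was nearest to N4bp2l1 (0.078) and Mal (0.095), Evpl to Gm15440 (0.091) and Duoxa1 (0.12), Tgm5 to Hmox1 (0.13) and Tgm1 to Hsdl2 (0.060). On this scale, none of the pairs among the 10 other than Tgm3 and Krtdap was nearer than the closest outside gene.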

How the data were processed

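RNA was isolated from DEOs grown in 4 media, and TruSeq libraries, 1 per medium, were sequenced on an Illumina HiSeq sequencer. According to the study's methods and processing notes, the authors trimmed reads with Trim Galore 0.6.5, checked them with FastQC 0.11.9, aligned them to GRCm38 with TopHat2 2.1.1 and ran Cufflinks, and the FPKM they deposited are used here. The annotation release, strand setting and Cufflinks options are not given in the sources used here. Without the strand setting, genes that overlap on opposite strands can share fragments. FPKM divides by transcript length and library size, so a short transcript such as Krtdap is sensitive to the assumed length, and very abundant genes lower all others.

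Entries with the same symbol were summed (123 symbols, none of them a member). Ratios between media were computed with a pseudocount of 1 wherever either library reached an FPKM of 1, and genes were counted at 2-fold, the fold threshold of the study. No test was run, as there is 1 library per medium. The genes, the lists and the rule for named genes (the 10 genes, their families and lists, and 3 most similar genes each) were chosen with earlier results of these data known. Relative depth and the value of 3 fragments were taken from steps of 1 fragment in 8367 genes that have 1 transcript, of 1000 nt or longer, and these limits cover counting error only. Positions and transcripts came from GENCODE release M21, with 46994 identifiers matched, and promoters from RefSeq (GRCm38.p6), where 7 of the 10 genes had an entry. Alternatives were upper-quartile scaling, a pseudocount of 0.1 or none, a limit on low values at an FPKM of 5 or none, centring on the median and the highest entry per symbol. The ratio computation was tested on simulated data. Python 3.11.15, numpy 2.4.6, pandas 2.3.3, Biopython 1.88 and matplotlib 3.10.9 were used.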

Additional observations from a re-analysis of the deposited data

Results flagged for a closer look

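For 2 of the 10 genes, a factor went with opposite signs in the absence and presence of the other. Evpl had a log2 ratio for FGF10 of -0.91 without DBZ and 0.20 with DBZ. The positive ratio lies close to the 0.094 of all genes and was 0.11 after centring. Ppl had a log2 ratio for DBZ of -0.25 without FGF10 and 0.02 with FGF10, which is under the shift of all genes (0.048) and became -0.03 after centring. Each ratio rests on 1 library per medium, and neither difference was tested.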

How the results depend on the processing

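Of the 50 log2 ratios of the 10 genes, none of those past 2-fold changed sign under the alternatives run, and between 44 and 50 of them kept their side of the 2-fold threshold (44 of the 44 that remained with a filter at an FPKM of 5). The difference of FGF10 ratios for Tgm3 reversed, from -1.43 to 0.26 with a pseudocount of 0.1 and 1.15 without one, and that for Calm4 moved from 1.26 to 1.94 and 2.05. A filter at an FPKM of 5 removed Tgm3 and Tgm5 from 3 comparisons each, and with it the median in +NFD relative to +N moved from 0.063 to -0.64 and the number of the 10 past 2-fold upwards in +NFD against +NF from 5 to 3. The number of the 10 past 2-fold downwards in +NFD against +N was 4 with upper-quartile scaling and 4 with centring, against 2. Over all genes, a pseudocount of 0.1 raised the number 2-fold higher from 774 to 1212 in +ND, from 361 to 712 in +NF and from 782 to 1271 in +NFD relative to +N, and from 450 to 818 in +NFD relative to +ND, while 480 instead of 319 were lower in +NF. Without a pseudocount the higher counts were 1222, 720, 1269 and 829. A filter at 5 left 488 higher in +NFD relative to +N, 307 (of 497) relative to +NF and 290 relative to +ND. Centring turned 774 higher and 697 lower in +ND into 615 and 842, 361 and 319 in +NF into 248 and 412, 782 and 538 in +NFD into 540 and 714, and 450 and 414 in +NFD relative to +ND into 345 and 506. Upper-quartile scaling gave 260 higher and 409 lower in +NF and 611 and 680 in +NFD. No paired analysis was possible because each medium has 1 library. Depth limits Tgm3 and Calm4 in +NF most, with about 12.1 and 30.5 fragments.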
